A study of Sus scrofa with 13 samples.

Results

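AMP-activated protein kinase (AMPK) is built from 3 kinds of subunit, and 9 genes were looked up here: the catalytic subunits PRKAA1 and PRKAA2, the beta subunits PRKAB1 and PRKAB2, the gamma subunits PRKAG1, PRKAG2 and PRKAG3, and the upstream kinases STK11 (LKB1) and CAMKK2. All probe sets whose platform annotation carried one of these symbols alone were taken, which covered 8 of the 9 genes, among 6765 genes named on the array, with 12 of its 23999 porcine probe sets. No probe set matched CAMKK2, which was not analysed here. PRKAA1 and PRKAG1 had 2 probe sets each, STK11 had 3, and the other 5 genes had 1 each.

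The samples were myocardial drill biopsies of 13 female Sinclair Miniswine, pigs of a small breed. At 3 months of age each animal had the first and second diagonal branches of its left anterior descending coronary artery tied off for good. The stem cell group (7 animals) then received 50000000 cells, which the protocol calls MPCs without spelling the name out, in 2 ml saline over 5 sites of the border zone around the infarct. The saline group (6 animals) was injected with the same volume of saline, 2 ml, at 5 comparable sites, and biopsies of both groups were taken at month 4. The labels do not give the source of the cells, whether any were left at month 4, or where each biopsy lay relative to the scar. There was 1 Affymetrix array for each animal, so the animal was the replicate.

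AMPK senses the energy state of the cell. The gamma subunit binds AMP, ADP or ATP, the beta subunit holds the complex together and binds glycogen, and the alpha subunit carries the kinase domain, which is switched on when LKB1 or CAMKK2 phosphorylates its activation loop. The active kinase favours fatty acid oxidation and glucose uptake and restrains lipid synthesis and growth, and ischaemia is a well known activator in heart muscle. Its activity depends on phosphorylation and nucleotide binding, neither of which an RNA array measures.

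Values are array intensities after the authors' GCRMA normalization, and all differences are stem cells minus saline on the log2 scale. Array medians lay between 13.5 and 14, arrays correlated at 0.936 to 0.986 over 14399 probe sets tested, and the median correlation of an array with the others was at least 0.96 for each of the 13. Of 18 cardiomyocyte marker genes with a probe set, 18 lay above the intensity filter. The labels give no scan date or batch. The filter kept for testing those probe sets with a mean log2 intensity above 3.36, the 40th percentile. That left 9 of the 12 probe sets. The single probe set of PRKAG3 and 2 of the 3 of STK11 were dimmer.

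No AMPK subunit or STK11 transcript passed the test between the groups. With limma and Benjamini-Hochberg adjustment over all 14399 probe sets, 0 of the 9 tested probe sets passed at 0.05, as did 0 of all probe sets (0.0%). At an unadjusted p under 0.05 there were 0 of 9 as well, against 10.5% of all probe sets tested (5.4% higher and 5.15% lower). Differences of the 9 ran between -0.23 and 0.25, with 3 negative (47.2% of all probe sets were) and 6 positive, and unadjusted p-values lay between 0.295 and 0.786 (adjusted 0.702 to 0.935, limma). Their median size regardless of sign was 0.154, beside 0.162 over all probe sets tested. Among the 95% intervals of the 9, the lowest bound was a 0.614-fold ratio of stem cells to saline, for PRKAG2. The highest was 1.94-fold, for the dimmer PRKAG1 probe set. No single interval spanned both, and that of PRKAB1 ran from 0.86-fold to 1.28-fold. Changes within the interval of each probe set could have gone unseen. In 0 of the 9 were the groups without overlap, against 0.278% of all probe sets.

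**Figure D1:**
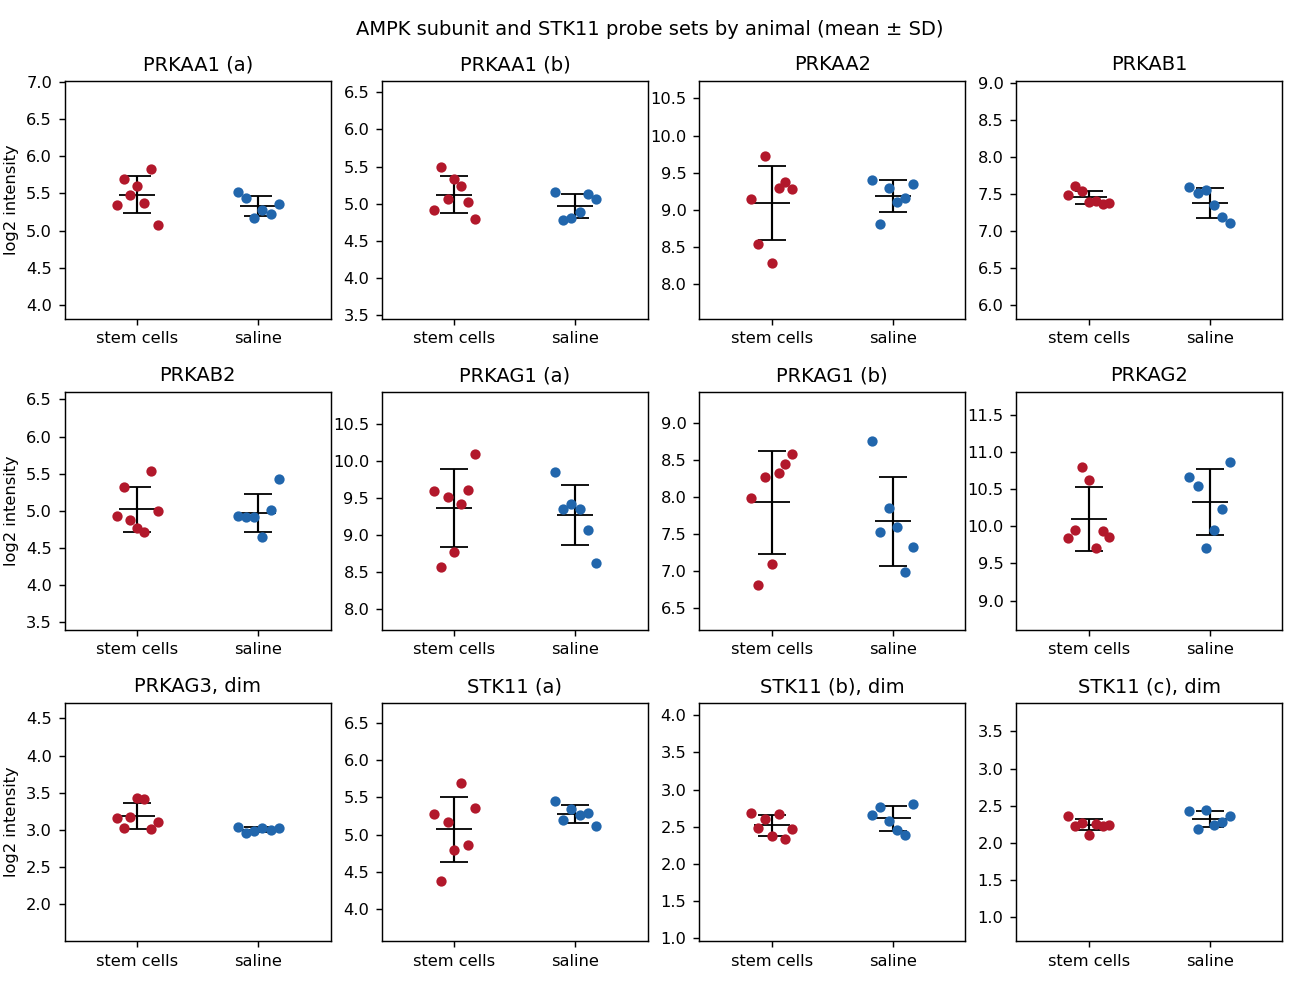
Log2 intensity of the 12 probe sets, 1 point an animal, stem cells left (7) and saline right (6), with bars for mean ± SD; each panel spans 3.2 log2 units, letters order a gene's probe sets from bright to dim, and "dim" marks those under the filter. Points of the groups overlap in 12 of 12 panels, and the 7 stem cell animals spread more widely than the 6 saline animals for PRKAA2 (SD 0.501 and 0.216) and the brightest STK11 probe set (SD 0.437 and 0.118).

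PRKAA2 encodes the alpha 2 catalytic subunit, the main catalytic form in heart and skeletal muscle. Its intensity had a lowest value of 313, a median of 622 and a highest value of 845 after stem cells, and a lowest of 448, a median of 598.5 and a highest of 676 after saline. Stem cells replicates 2 and 4, at 371 and 313, lay below all saline animals, stem cells replicate 3 at 845 lay above them all, and the other 4 stem cell animals, between 565 and 662, fell inside the saline range. Mean log2 intensities were 9.09 ± 0.50 for the 7 stem cell animals and 9.19 ± 0.22 for the 6 saline animals (± SD). The difference was -0.09 ± 0.21 (SE), with a 95% interval of -0.55 to 0.36 and an adjusted p of 0.893 (limma). Without stem cells replicate 4 it was 0.04.

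PRKAA1 encodes alpha 1, the catalytic subunit found in most tissues. Its brighter probe set ran between 33.6 and 56.9 with a median of 44.6 after stem cells, and between 35.8 and 45.7 with a median of 39.9 after saline. The highest 3 values all came from stem cell animals, replicates 6, 2 and 4, and the lowest also came from one, replicate 7. Its second probe set ran between 27.7 and 45 with a median of 33.5 after stem cells, and between 27.4 and 35.8 with a median of 31.4 after saline. Both probe sets gave nearly the same difference, 0.155 ± 0.147 and 0.154 ± 0.144 (SE), with intervals of -0.16 to 0.47 and -0.15 to 0.46 and adjusted p of 0.709 and 0.707 (limma). The first was 0.098 with stem cells replicate 6 left out and the second 0.093 with replicate 2 left out.

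The beta subunits had closely matching medians in the 2 groups. PRKAB1, encoding beta 1, had a lowest intensity of 165, a median of 170 and a highest of 195 after stem cells, and 138, 173 and 193 after saline. All 7 stem cell animals lay in a narrow band, while 3 saline animals, replicates 4, 5 and 6, lay below it. The difference was 0.069 ± 0.135 (SE) with an interval of -0.22 to 0.36 (adjusted p of 0.873, limma), and it was 0.014 without saline replicate 6. PRKAB2, encoding beta 2, the form most prominent in muscle, had a lowest intensity of 26.2, a median of 30.4 and a highest of 46.4 after stem cells, and 25, 30.35 and 43 after saline. In each group 1 animal stood highest, replicate 6 in both, and the medians were all but equal. Its difference was 0.05 ± 0.17 (SE) with an interval of -0.31 to 0.40 (adjusted p of 0.935, limma), and it turned negative, down to -0.04, when stem cells replicate 2, stem cells replicate 6 or saline replicate 4 was left out.

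PRKAG1 varied widely between animals. It encodes gamma 1, the common gamma form, and had intensities between 382 and 1090 with a median of 729 after stem cells and between 396 and 924 with a median of 651.5 after saline at its brighter probe set. At the dimmer one they ran between 112 and 381 with a median of 308 after stem cells and between 127 and 431 with a median of 189 after saline. At the dimmer probe set 5 of 7 stem cell animals lay above the saline median, but saline replicate 1 had the highest value of all. Differences were 0.09 ± 0.24 and 0.25 ± 0.33 (SE), with intervals of -0.43 to 0.61 and -0.45 to 0.95 (adjusted p of 0.912 and 0.799, limma). The second interval was the widest of the 9 and reaches a 1.94-fold excess after stem cells. The brighter probe set turned to -0.04 without saline replicate 6 and to -0.03 without stem cells replicate 7. The dimmer one was at 0.117 without saline replicate 5 and at 0.47 without saline replicate 1.

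PRKAG2 encodes gamma 2, which in humans is the subunit whose mutations cause a cardiomyopathy with glycogen storage and ventricular pre-excitation. Its probe set ran between 838 and 1780 with a median of 977 after stem cells, and between 837 and 1860 with a median of 1350 after saline. Stem cells replicates 3 and 4, at 1780 and 1590, stood apart from the other 5 of their group, which lay between 838 and 992, while saline animals were spread across the whole range. The difference was -0.23 ± 0.22 (SE), with an interval of -0.70 to 0.25 and an adjusted p of 0.727 (limma). Without saline replicate 6 it was -0.119 and without saline replicate 3 it was -0.35. Within groups, PRKAG2 correlated with the mean log2 level of the 18 cardiomyocyte markers over the 13 animals (Pearson's r = 0.79, permutation p of 0.00249; Spearman's rho = 0.79, permutation p of 0.00304), which became 0.269 and 0.328 when adjusted over 108 such relations. That relation rested on the natriuretic peptide genes NPPA and NPPB, which load and stress are known to raise: without them r was 0.01 over the other 16 markers, a list trimmed after its values were seen and so given no test. The mean of all 18 was 13.16 ± 0.056 after stem cells and 13.19 ± 0.088 after saline (SD, n = 7 and 6), with summed intensities of 259432 to 303940 and 249515 to 277936. Of the 18, 14 had a higher mean after stem cells, while NPPA and NPPB stood at 0.588-fold and 0.354-fold. Their groups overlapped, and neither passed at an adjusted p of 0.05 (limma). NPPA ran between 915 and 3160 after stem cells and between 1550 and 8290 after saline, and NPPB between 137 and 9320 and between 1370 and 13600. Without these 2 genes the marker mean was 13.47 ± 0.141 after stem cells and 13.36 ± 0.079 after saline. A fit with the sarcomere to collagen balance as a covariate left the PRKAG2 difference at -0.23. In that balance the collagens COL1A2 and COL3A1 were dim, at medians of 12.5 and 13.8 after stem cells. COL5A2 was under the filter, and COL5A1 was brighter, at a median of 130. The balance may thus follow scar content poorly, and this fit cannot show the part of tissue makeup. In such bulk samples, fewer cells of a type and less RNA per cell cannot be told apart.

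PRKAG3 encodes gamma 3, which is largely a skeletal muscle form and in pigs is known as the gene behind high muscle glycogen in the Hampshire breed. It was dim here. Intensities ran between 8.06 and 10.8 with a median of 8.92 after stem cells, and between 7.78 and 8.2 with a median of 8.035 after saline, while tag controls, designed to match no pig RNA, reached a mean of 5.97 at most. Of 7 stem cell animals 5 lay above all saline animals, with replicates 4 and 5 at 10.8 and 10.7, and replicates 2 and 6 lay within the saline range. Fitted with no intensity filter, the difference was 0.185 ± 0.0805 (SE), a 1.14-fold ratio, with an unadjusted p of 0.0351 and an adjusted p of 0.55 over 23999 probe sets (limma). An exact two-sided permutation test over all 1716 splits gave a p of 0.0146, also unadjusted. In that fit 4.17% of all probe sets were higher at an unadjusted p under 0.05. With 1 animal left out the difference ran between 0.145 and 0.215, and the unadjusted p between 0.0182 and 0.0781 (limma). Leaving out any of 5 animals (stem cells replicates 4 and 5, saline replicates 2, 3 and 5) put that p above 0.05. Of 10 skeletal muscle markers with a probe set, 4 lay above the filter and 2 at or under the tag controls. Their mean log2 level was 5.13 ± 0.17 after stem cells and 5.34 ± 0.15 after saline (SD, n = 7 and 6), with summed intensities of 21082 to 24429 and 20356 to 23286. Of that sum 87.6% to 97.4% was CKM, the muscle creatine kinase, which heart muscle also makes at a high level. Without CKM the sums were 628 to 1598 after stem cells and 965 to 2886 after saline. Of all 10 markers 3 had a higher mean after stem cells, namely CKM itself, and ATP2A1 and MYOD1, both under the filter. The marker mean of stem cells replicates 4 and 5 was 5.11 and 5.29, where saline animals ran between 5.13 and 5.55, and the part of skeletal muscle RNA in the PRKAG3 values was not tested. MYOD1 was at a mean log2 level of 2.43 after stem cells and 2.34 after saline, not above the highest tag control mean of 2.58. Beside CKM, the markers above the filter were TNNT1, MYL1 and TNNI2. TNNT1 ran between 425 and 1420 after stem cells and between 688 and 2060 after saline. MYL1 ran between 17.2 and 202 after stem cells and between 29.6 and 1190 after saline. For TNNI2 the ranges were 14.5 to 21.9 and 15.8 to 23.7.

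STK11 encodes LKB1, the kinase that phosphorylates the AMPK activation loop. Its brightest probe set had a lowest intensity of 20.7, a median of 35.9 and a highest of 51.9 after stem cells, and 34.6, 38.8 and 43.8 after saline. Stem cells replicates 2, 4 and 6, at 20.7, 27.6 and 28.9, lay below all saline animals and replicate 5 lay above them. The difference was -0.205 ± 0.19 (SE), with an interval of -0.61 to 0.20 and an adjusted p of 0.702 (limma). Leaving out stem cells replicate 2 gave -0.09, and leaving out replicate 5 gave -0.31. The other probe sets averaged 2.56 and 2.28 on the log2 scale, not above the highest tag control mean of 2.58.

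**Figure D2:**
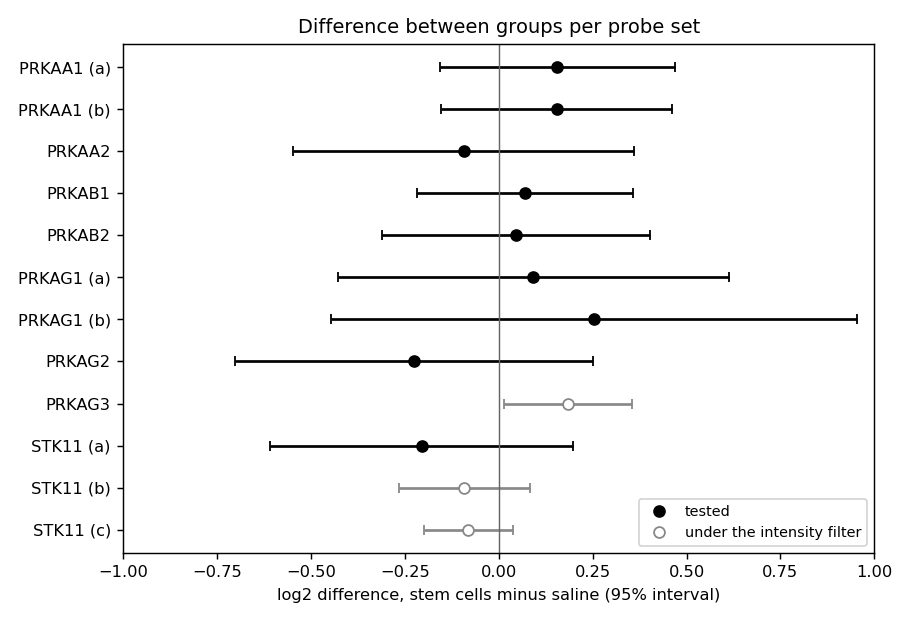
Log2 difference (stem cells minus saline) with its 95% interval for each of the 12 probe sets, filled where tested and open where under the intensity filter and fitted without it. The intervals of the 9 tested probe sets all contain 0; that of PRKAG3 runs from 0.02 to 0.36.

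AMPK subunits come as paralogous pairs, and the balance within a pair was described for each array as a log2 difference between the brighter probe sets of the 2 genes. Its level has no meaning across probe sets of unequal brightness, but its shift between groups does, and no test was made. PRKAA2 minus PRKAA1 was 3.61 ± 0.62 after stem cells and 3.86 ± 0.26 after saline (SD, n = 7 and 6). Stem cells replicates 2 and 4, at 2.84 and 2.70, were the lowest of the 13, and the next lowest was saline replicate 2 at 3.37. PRKAB2 minus PRKAB1 was -2.44 ± 0.31 and -2.41 ± 0.41, with 1 high animal in each group. PRKAG2 minus PRKAG1 was 0.73 ± 0.77 after stem cells and 1.05 ± 0.67 after saline, and values ran between -0.24 and 1.86 and between 0.30 and 2.23. The groups overlapped in all 3 pairs, and each shift between groups, at most 0.32 in size, was smaller than the SD within the groups.

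**Figure D3:**
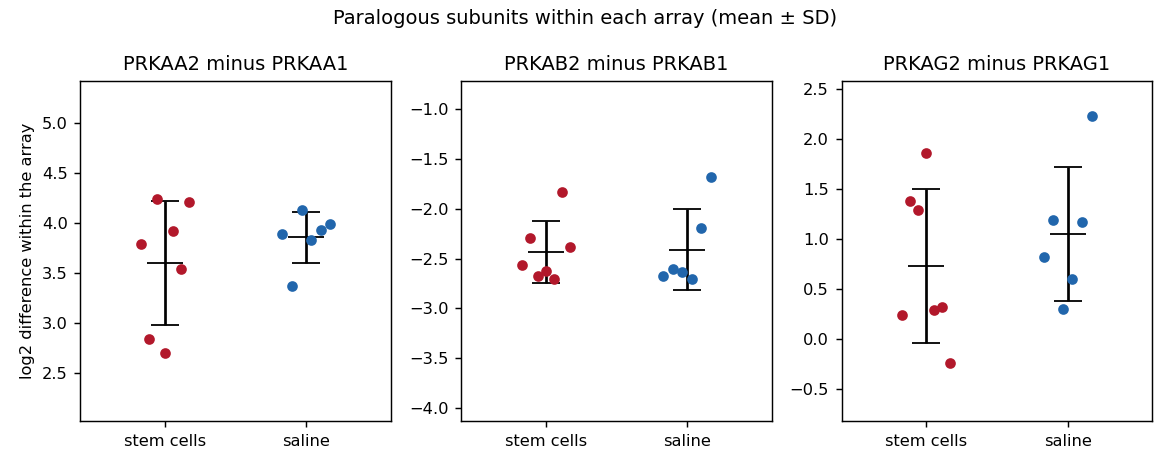
Difference in log2 intensity within each array for the catalytic, beta and gamma pairs, stem cells left (7 animals) and saline right (6 animals), with bars for mean ± SD. In the catalytic pair 2 stem cell animals, at 2.84 and 2.70, lie below the other 11.

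At PRKAA2, PRKAG1 and STK11 the animals that stood low were often the same ones, which the map of all tested probe sets by animal shows. Stem cells replicate 2 had the lowest value of the 13 animals at both PRKAG1 probe sets and at STK11 (382, 112 and 20.7) and the second lowest at PRKAA2. Stem cells replicate 4 was the lowest at PRKAA2 and among the lowest 3 at both PRKAG1 probe sets and STK11. PRKAA1 went the other way in them, at 51.8 and 48.3 in its brighter probe set. The remaining genes did not share the pattern: replicate 2 had the highest PRKAB1 value, 195, and replicate 4 stood at 1590 at PRKAG2, above the saline median of 1350. Stem cells replicate 2 also had the highest 3' to 5' ratio of the actin control, a measure that rises as RNA degrades, at 5.03 on the log2 scale, where the other 12 animals lay between 1.61 and 4.20. Stem cells replicate 4 had a fibroblast and matrix marker mean of 9.08, the second highest after saline replicate 2 at 9.15.

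**Figure D4:**
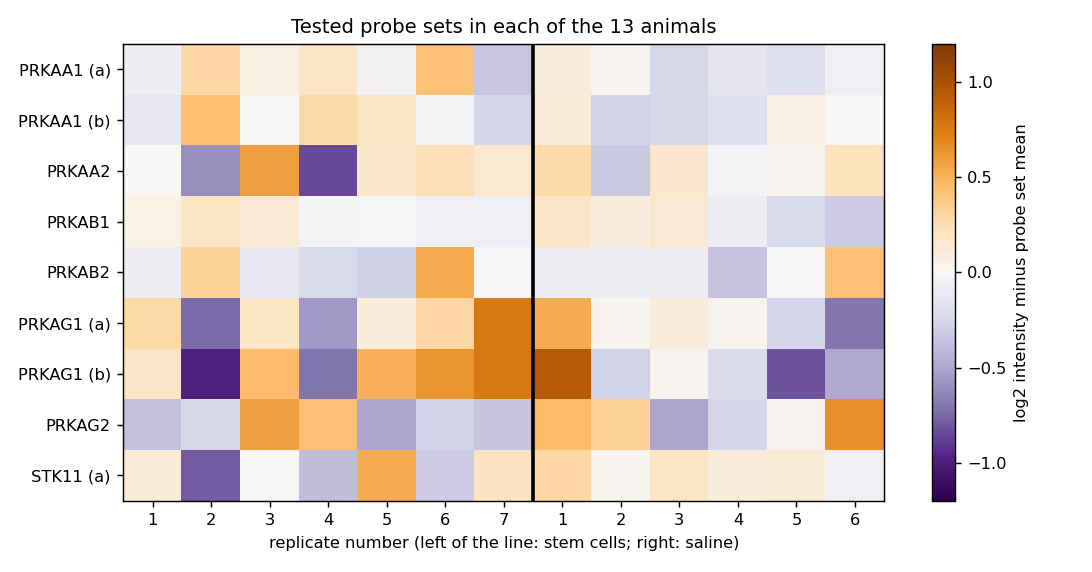
Log2 intensity of each tested probe set minus its mean over the 13 animals, orange above and purple below; columns are replicates, stem cells left of the black line and saline right. Stem cells replicates 2 and 4 are purple at PRKAA2, PRKAG1 and STK11 and orange at PRKAA1.

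Pairs of probe sets were then correlated over the 13 animals on deviations from the group means, after these values had been seen, with permutation within groups. Of 36 pairs, 1 passed at an adjusted p of 0.05 by Pearson's r. That pair was the 2 probe sets of PRKAG1, at r = 0.90 (permutation p of 0.00033, adjusted 0.0119) and rho = 0.87 (0.00057, adjusted 0.0205), so the same gene was ranked alike by different probes. It held within stem cells (r = 0.94) and within saline (r = 0.81) and without the 2 animals farthest from the median (r = 0.89). PRKAA2 and the dimmer PRKAG1 probe set had r = 0.74 (permutation p of 0.00928, adjusted 0.111) and rho = 0.83 (0.00232, adjusted 0.0418). This relation was uneven, with r = 0.89 within stem cells and 0.42 within saline, and r was 0.49 without stem cells replicates 2 and 4. The PRKAA1 probe sets followed each other less closely (r = 0.53, permutation p of 0.109, adjusted 0.386; rho = 0.56, permutation p of 0.0793, adjusted 0.317).

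The same deviations were set against 9 cell type marker means and 3 RNA integrity ratios, and 0 of 108 relations passed after adjustment. PRKAA2 had r = -0.74 with the 3' to 5' ratio of GAPDH (permutation p of 0.0123, adjusted 0.322; rho = -0.73, permutation p of 0.0126, adjusted 0.49), and -0.69 without stem cells replicates 2 and 4. With the fibroblast and matrix markers it had r = -0.72 (permutation p of 0.00627, adjusted 0.322; rho = -0.65, permutation p of 0.0279, adjusted 0.519), and -0.55 without the same 2 animals. Of 12 such markers with a probe set 11 lay above the filter, and their summed intensity ran between 18551 and 50892 after stem cells and between 17759 and 53525 after saline. With the sarcomere to collagen balance as a covariate the PRKAA2 difference was -0.083, against -0.094 without it. As for PRKAG2, the dim collagen probe sets limit that balance as a measure of scar content. PRKAA2 also had r = -0.70 with the macrophage and monocyte markers, and -0.73 without stem cells replicates 2 and 4. Other members also had relations with the integrity ratios, for STK11 and PRKAG1 mainly within stem cells. With actin r was -0.73 for STK11 (-0.91 within stem cells, 0.25 within saline) and 0.60 for PRKAB1 (0.56 and 0.82). With GAPDH it was -0.61 and -0.64 for the PRKAG1 probe sets (-0.85 and -0.90 within stem cells, 0.03 and -0.04 within saline). Without the 2 animals farthest from the median, r was 0.63 for PRKAB1 and -0.45 and -0.39 for PRKAG1. For STK11 it was -0.22 without stem cells replicates 2 and 5. Adjusted permutation p over the 13 animals was 0.322 or more in each of these relations. The part of RNA integrity in the values of these members was not tested.

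For the genes most like each kinase, named probe sets were ranked by Pearson's r with it over the same 13 deviations, as a description of the highest of 5196 genes. PRKAA2 was followed most closely by MDH2 (r = 0.935), the mitochondrial malate dehydrogenase, then by PDE3A (0.914), a phosphodiesterase of the heart, and PATL1 (0.909). PRKAA1 was followed by MAGT1 (0.891), CWC22 (0.848) and CREBZF (0.841). STK11 was followed by SUMO3 (0.951), GID8 (0.94) and NDRG2 (0.932).

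The wider pathway was described through 6 lists holding 128 genes, of which 67 had a probe set and 51 were tested, each by its brightest probe set. None passed when adjusted over all probe sets: limma called 0 higher and 0 lower. At an unadjusted p under 0.05, 1 was higher and 7 were lower, which is 1.96% and 13.7% of the 51, against 2.91% and 8.95% of all 5196 genes taken in the same way. Of the 51, 30 had a negative difference, against 59.4% of all genes.

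Among partners of LKB1 and regulators of AMPK, 9 were tested, with a median difference of -0.03. CALM3, encoding calmodulin, which CAMKK2 needs, ran between 84.7 and 206 with a median of 104 after stem cells and between 172 and 401 with a median of 215.5 after saline. Its difference was -0.88 ± 0.26 (SE, unadjusted p of 0.00441, adjusted 0.393, limma), but its 4 tested probe sets ran between -0.88 and 0.30 with 2 of them negative. CALM2, which encodes the same protein, was at -0.14 ± 0.13 and CDC37, a kinase co-chaperone, at -0.14 ± 0.185. SESN1, a stress-induced protein that promotes AMPK signalling, was at 0.585 ± 0.306 on its brighter probe set, and both of its probe sets were positive. Saline replicates 3, 5 and 6, at 1020, 389 and 677, lay below all stem cell animals (1160 to 2230). SESN1 was at 0.306 without saline replicate 5. STRADB, a pseudokinase that binds LKB1, was at 0.035 ± 0.19, and turned negative when any 1 of 4 animals was left out and with array weights. Its 4 tested probe sets were all positive, between 0.035 and 0.125. Of 8 AMPK-related kinases with a probe set, most of which LKB1 also activates, 4 were tested. SIK3 was at -0.39 ± 0.22, MARK1 at -0.19 ± 0.17, NUAK1 at 0.15 ± 0.15 and MARK3 at 0.15 ± 0.13, with 1 of its 3 probe sets negative.

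Of 11 tested AMPK substrates in lipid and glucose metabolism 3 had an unadjusted p under 0.05, all lower after stem cells (27.3%, against 8.95% of all genes). AMPK inhibits muscle glycogen synthase GYS1 by phosphorylation. GYS1 ran between 20.1 and 50.6 with a median of 35 after stem cells. After saline it ran between 41.6 and 86.5 with a median of 52.45, and only 1 of 7 stem cell animals reached that range. The difference was -0.81 ± 0.23 (SE, unadjusted p of 0.00318, adjusted 0.393, limma), and only 1 of its 3 probe sets was tested. SREBF2, a transcription factor of cholesterol synthesis, was at -0.345 ± 0.131 with intensities of 15.1 at most, and its other 3 probe sets were under the filter. HDAC5, a histone deacetylase, was at -0.655 ± 0.28, with unadjusted p of 0.0336 (adjusted 0.445, limma). GPAM, an enzyme of triglyceride synthesis, was at -0.26 ± 0.14. TBC1D1, which controls glucose transporter traffic, was at 0.02 ± 0.22, and its sign turned with 7 of 13 animals left out in turn. Its 3 tested probe sets were all positive, between 0.02 and 0.43. The brightest probe sets of ACACA, the cytosolic acetyl-CoA carboxylase, of TBC1D4 and of TSC2 were under the filter, at differences of 0.12, -0.06 and -0.01 in the fit without it.

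In the growth and autophagy arms, the 5 tested genes of mTORC1 signalling had a median of -0.21 and 0 at an unadjusted p under 0.05. AKT1S1, an inhibitor within mTORC1, was at -0.81 ± 0.47 with a wide spread after stem cells (21.8 to 188) and after saline (69.2 to 222). RHEB, RRAGA and RRAGC, small GTPases that activate mTORC1, were at -0.22 ± 0.16, -0.206 ± 0.145 and 0.23 ± 0.24. Of 14 tested autophagy genes 1 was higher and 2 were lower at an unadjusted p under 0.05 (7.14% and 14.3%, against 2.91% and 8.95% of all genes). RB1CC1 (FIP200), the scaffold of the ULK1 complex, ran between 547 and 1020 with a median of 732 after stem cells and between 438 and 593 with a median of 507.5 after saline, at 0.47 ± 0.16 (unadjusted p of 0.00993, adjusted 0.414, limma). Only 1 of its 2 probe sets was tested. ATG13, another part of that complex, was at -0.325 ± 0.125 with intensities of 20.4 at most. MAP1LC3B, an autophagosome marker, was at -0.30 ± 0.14 on 1 probe set and 0.08 on the other. GABARAPL2, of the same protein family, was at -0.17 ± 0.092.

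Of 8 tested genes of adenine nucleotide metabolism, which sets the AMP and ADP levels that AMPK reads, 1 was lower at an unadjusted p under 0.05 (12.5%, against 8.95% of all genes). This was GUK1, a guanylate kinase, at -0.23 ± 0.10 with intensities of 14.7 at most. NT5C2, a nucleotidase, was at 0.229 ± 0.185, adenosine kinase ADK at -0.16 ± 0.15 and purine nucleoside phosphorylase PNP at -0.455 ± 0.466. The PNP medians ran the other way, at 9.67 after stem cells and 8.8 after saline, where saline replicates 5 and 6 stood at 46.8 and 36.3 and the other saline animals at 8.97 or less.

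**Figure D5:**
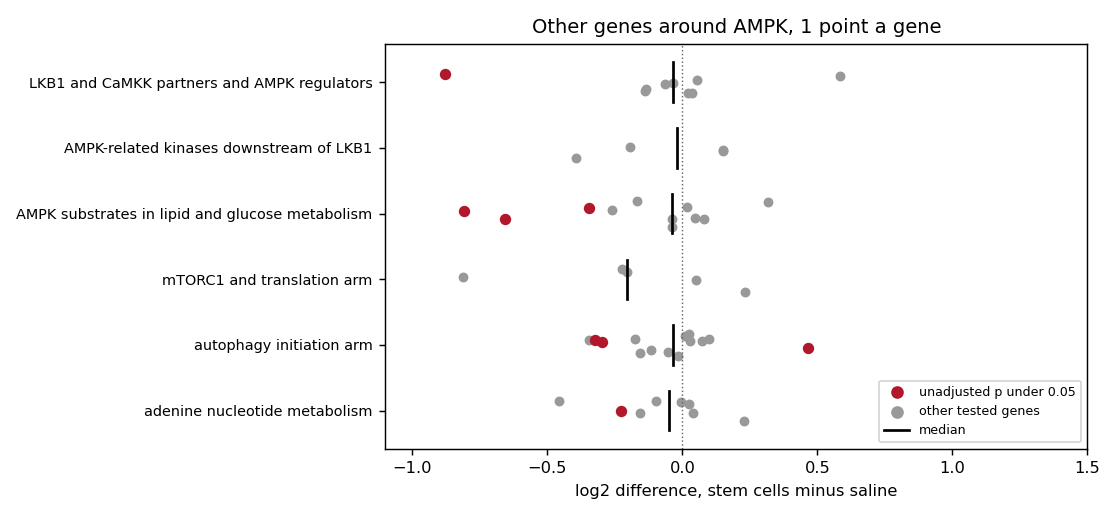
Log2 difference (stem cells minus saline) of the tested genes of 6 lists around AMPK, 1 point a gene, with black bars for list medians and red points for an unadjusted p under 0.05. Of 51 genes, 7 red points lie below 0 and 1 above, and medians lie between -0.21 and -0.02.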

How the data were processed

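Probe set intensities on a linear scale were deposited by the authors after GCRMA, per the submitters' processing notes; for its version and settings the sources used here give nothing. GCRMA normalizes between arrays, so a change shared by most genes would not show. Of 24123 probe sets, 124 controls were left out. Symbols came from the platform annotation (1 symbol for 10069 probe sets). Log2 values without a pseudocount were fitted in R 4.3.3 with limma 3.58.1 (lmFit and eBayes with trend) over probe sets above the 40th percentile of mean log2 intensity, and the fit was tested on simulated data. Relations used 100000 permutations within groups. The number of arrays limits the precision: the median SE was 0.18.

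The members and lists were chosen with earlier results of these data known. Named genes were all member probe sets, the 4 smallest p in each list and 12 fixed pathway genes where measured. Alternatives covered the filter, normalization, a floor, the variance model, array weights, a replicate block, tissue makeup and each animal left out. The labels give no pairing of the animals by replicate number. Of 6 same-numbered pairs 1 had deviations correlated over 0.1, a check that cannot settle whether animals were paired.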

Additional observations from a re-analysis of the deposited data

How the results depend on the processing

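Over 258 refits of the 12 member probe sets, 251 kept the direction and stayed on the same side of the threshold, 7 turned in sign and 0 passed an adjusted p of 0.05 (lowest 0.49). With each animal left out the log2 differences ran from -0.20 to 0.04 for PRKAA2 (0.039 without stem cells replicate 4), from -0.04 to 0.137 for PRKAB2 (-0.019 when saline replicate 4 was omitted, -0.003 for stem cells replicate 2 and -0.04 for replicate 6), and from -0.038 to 0.224 for the brighter PRKAG1 probe set (-0.038 when saline replicate 6 was omitted, -0.029 for stem cells replicate 7). With the replicate block that probe set was at -0.029, and the block changed no call. The count of members at an unadjusted p under 0.05 was 1 with no filter, namely PRKAG3. The count of all probe sets past the threshold was 0 to 1 with an animal left out (1 without saline replicate 5), 0 under the other settings and 0 at an adjusted p of 0.10. Of 29 named pathway genes 3 turned in sign: STRADB ran from -0.085 to 0.152 with an animal left out and was at -0.012 with array weights, TBC1D1 ran from -0.073 to 0.14 and was at -0.014 after a second quantile normalization, and TSC2, fitted without the filter, ran from -0.046 to 0.045. With an animal left out, 7 more of the 12 member probe sets and 11 more of the 29 named pathway genes kept their sign but moved by over 1.5 times. The causes were not tested. The balance of paralogs moved by less than 1 SD under each setting tried, from -0.356 to -0.098 for the catalytic pair, -0.124 to 0.123 for the beta pair and -0.505 to -0.082 for the gamma pair. Refits without the filter for dim probe sets, and those of the balance, were chosen after seeing the data. GPAM and PNP fell under the filter in some refits and have no value there.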
